A study of Mus musculus with 12 samples.

Results

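The genes described here are 9 transcription factors of sensory neurons and of the cranial placodes: Isl1, Isl2, Pou4f1, Pou4f2, Tlx3, Eya1, Eya2, Runx1 and Runx3. They were chosen by name, and each was read from the probe sets annotated to that symbol alone, taking the probe set with the highest mean level where a gene had several. Of the 9 genes, 8 had such a probe set, out of 18193 genes with one on the array; Pou4f2 was not analysed here. The cells were mouse embryonic stem (ES) cells of the 129P2/OlaHsd strain (E14, Ainv15) engineered to express Neurog1, a proneural basic helix-loop-helix factor, from a tetracycline-sensitive system. All groups grew in serum medium with LIF, puromycin and G418. The 3 induced groups received 1 ug/ml doxycycline for 24, 48 or 72 h, and the uninduced group was the same line in maintenance culture, at 0 h and without doxycycline. There were 12 arrays, 3 for each of the 4 groups, titled biological replicates. The labels give 0 h for all 3 uninduced samples and were followed, although the wording of the series design can also be read as uninduced sampling at 24, 48 and 72 h. On the labels' reading, a comparison with that group holds the transgene, the drug and the time in culture together, and these cannot be told apart. All results come from 1 engineered line.

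Isl1 and Isl2 are LIM-homeodomain proteins, Pou4f1 (Brn3a) and Pou4f2 (Brn3b) are POU-homeodomain proteins, and Tlx3 is a homeobox protein. Isl1 and Pou4f1 are expressed together in nearly all early sensory neurons of the dorsal root and cranial ganglia, where both are needed to end the progenitor programme and start that of sensory subtypes. Eya1 and Eya2 are transcriptional coactivators with phosphatase activity that act in the placodes, the ectodermal thickenings that give rise to cranial sensory ganglia. Runx1 and Runx3 are runt-domain factors that later divide sensory neurons into nociceptive and proprioceptive classes. Several of these genes also serve elsewhere: Isl1 and Isl2 in motor neurons, Tlx3 in dorsal spinal interneurons, Pou4f1 and Pou4f2 in retinal ganglion cells, and Runx1 in blood.

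The sequences below show the stretch of 250 bases upstream of the annotated start of 4 members, as RefSeq gives them for GRCm38.p6. They are set side by side because Isl1 and Pou4f1 were called higher by 48 h of induction and Isl2 and Tlx3 first at 72 h, as described further on. Capitals mark E-box words (CANNTG, the family of motifs that proneural factors bind as dimers) and CCAAT boxes (CCAAT or its complement ATTGG), searched on both strands. Each sequence runs 5′ to 3′ on the strand of its gene.
Isl1, chr13:116309689-116309938, minus strand: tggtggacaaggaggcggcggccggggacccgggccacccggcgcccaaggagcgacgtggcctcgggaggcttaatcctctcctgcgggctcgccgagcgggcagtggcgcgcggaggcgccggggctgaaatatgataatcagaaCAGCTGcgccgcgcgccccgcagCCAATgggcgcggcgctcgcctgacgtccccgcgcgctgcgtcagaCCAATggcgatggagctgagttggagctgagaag
Pou4f1, chr14:104468000-104468249, minus strand: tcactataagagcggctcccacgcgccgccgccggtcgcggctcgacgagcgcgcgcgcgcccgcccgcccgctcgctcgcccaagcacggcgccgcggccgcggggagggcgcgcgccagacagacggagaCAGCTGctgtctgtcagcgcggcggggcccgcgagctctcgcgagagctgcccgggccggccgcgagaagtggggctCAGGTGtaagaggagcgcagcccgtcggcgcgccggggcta
Isl2, chr9:55540899-55541148, plus strand: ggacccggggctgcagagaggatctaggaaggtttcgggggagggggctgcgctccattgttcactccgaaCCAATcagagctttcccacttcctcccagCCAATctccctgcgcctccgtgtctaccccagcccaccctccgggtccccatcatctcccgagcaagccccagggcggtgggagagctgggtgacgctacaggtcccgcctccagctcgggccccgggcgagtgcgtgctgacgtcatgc
Tlx3, chr11:33203589-33203838, minus strand: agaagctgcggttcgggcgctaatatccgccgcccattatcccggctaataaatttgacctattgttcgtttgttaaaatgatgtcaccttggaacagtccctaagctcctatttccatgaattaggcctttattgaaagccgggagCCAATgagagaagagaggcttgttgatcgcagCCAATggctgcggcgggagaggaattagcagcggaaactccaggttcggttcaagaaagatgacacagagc

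The Isl1 window held 1 E-box, CAGCTG, at -103 from the start, and 2 CCAAT boxes. The Pou4f1 window held CAGCTG at -118 and CAGGTG at -41, and no CCAAT box. Neither the Isl2 nor the Tlx3 window held an E-box word, and each held 2 CCAAT boxes. Runx1 and Runx3 were too low in signal to enter the fit that made the calls, so they are not called or uncalled genes here. Each has 2 windows, and 1 of the 2 held E-box words in each case, 3 for Runx1 and 1 for Runx3. Of 32851 windows of the same length over all genes of the RefSeq table, 66.2% held CANNTG, 13% held CAGCTG and 33.8% held CCAAT on either strand, so these words are common. The form CAGATG was in 14.4% of all windows and in none of the windows of the members. The G and C content was 71.2% for Isl1, 78.0% for Pou4f1, 66.8% for Isl2 and 48.8% for Tlx3, against a median of 52.4% over all windows. In all, 7 of the 9 members had an entry, with 9 windows; Eya1 and Eya2 had no entry. These matches describe the letters alone.

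Values are array signals on a linear scale, and the median signal of an array lay between 19.5 and 32.8. Differences between groups are given on the scale of log2(signal + 16), which understates the change of genes with low signal. They come from 1 limma fit over 11806 genes that exceeded the median of their array on at least 3 arrays of a group. A gene was called at a Benjamini-Hochberg adjusted p under 0.05, over all these genes. Isl1, Isl2, Pou4f1, Tlx3, Eya1 and Eya2 entered that fit, and Runx1 and Runx3 did not. Isl2 and Eya1 exceeded the array median on all 3 uninduced arrays; Isl1, Pou4f1, Tlx3 and Eya2 entered only through induced groups, so that counts over the 6 tested members cannot be read as support. The same limit holds for the gene lists below in which few genes exceeded the array median on all 3 uninduced arrays. In bulk RNA, fewer cells of a type and less RNA per cell cannot be told apart.

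As a check of the labels, Neurog1 gave signals of 11.4, 18.7 and 4.53 on the uninduced arrays of replicates 1, 2 and 3. After 24 h its signals were 756, 931 and 974, after 48 h 1089, 1152 and 889, and after 72 h 783, 679 and 465. All 12 ES cell markers (among them Pou5f1, Nanog and Zfp42) lay above the array median on every uninduced array, at the 87.1st percentile of all probe sets or higher. Replicate 1 of the 24 h group stood apart: over all genes its correlation with the other arrays of its group was 0.787 to 0.812, against 0.961 to 0.988 for the other pairs of arrays within groups. For the members, calls that change without this array are given both ways.

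**Figure D1:**
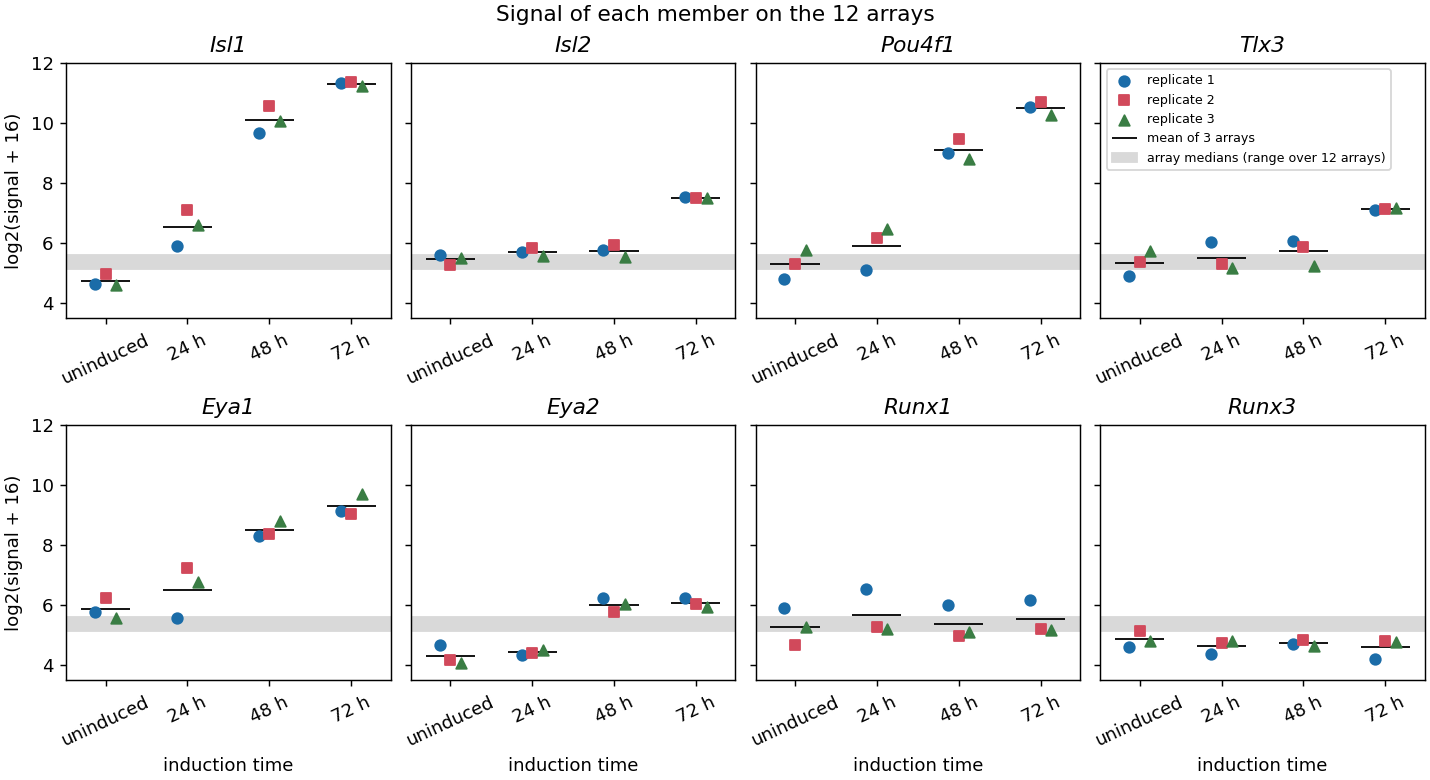
Level of each of the 8 measured members on every array, as log2(signal + 16) against induction time (uninduced, 24, 48 and 72 h). Symbols mark replicates 1 to 3, black lines the mean of 3 arrays, and the grey band the range of the array medians; Isl1 and Pou4f1 stand clear of the band by 48 h, Isl2 and Tlx3 on all arrays at 72 h, and Runx1 and Runx3 show no separation of the groups.

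Isl1 was the only member called at 24 h, and its level was higher at each later time. Its uninduced signals were 8.84, 15.3 and 8.27, all below the array median. At 24 h they were 44.4, 122 and 82.8, at 48 h 803, 1523 and 1067, and at 72 h 2588, 2630 and 2391. The 4 groups did not overlap, and replicate 1 was the lowest array of the 24 h group. Over all genes tested, all 3 arrays lay above all 3 uninduced arrays for 17.4% at 24 h, 35.4% at 48 h and 35.6% at 72 h, and above those of the earlier time for 19.7% from 24 to 48 h, 22.6% from 24 to 72 h and 11.5% from 48 to 72 h. Relative to uninduced cells Isl1 differed by 1.82 ± 0.31 on the log2 scale (SE, n = 3 arrays a group) at 24 h, with a limma adjusted p of 0.00293. It was 5.38 ± 0.31 at 48 h (limma adjusted p 2.74e-07) and 6.58 ± 0.31 at 72 h (limma adjusted p 7.75e-08), the third largest rise of all 11806 genes tested at 72 h. Of all genes tested, 8.12% were called higher at 24 h, 22.6% at 48 h and 25.3% at 72 h, and 3.18%, 14.0% and 18.6% lower. Under quantile normalization the balance at 72 h turned, with 2512 genes called higher and 2636 lower in place of 2982 and 2198. From 24 to 48 h Isl1 rose by 3.56 ± 0.31, with 10.3% of tested genes called higher, and from 24 to 72 h by 4.77 ± 0.31, with 16.2% called higher. From 48 to 72 h it was 1.20 ± 0.31 and was not called (limma adjusted p 0.113), although all 72 h arrays lay above all 48 h arrays. Without replicate 1 of the 24 h group that comparison gave an adjusted p of 0.00833 in the same limma fit. The second Isl1 probe set gave differences of 1.68, 3.95 and 5.17 from uninduced cells at the 3 times.

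Isl2, the paralogue of Isl1, was not called at 24 or 48 h and rose by 72 h. The uninduced arrays gave 33.1, 22.9 and 30.0, each above its array's median. Signals at 24 h were 36.6, 41.8 and 31.5, and at 48 h 38.4, 45.3 and 30.2, so these 3 groups overlapped. The 72 h arrays gave 171, 167 and 164 and lay apart from all 9 others. Isl2 differed from the uninduced level by 0.24 ± 0.20 at 24 h and 0.27 ± 0.20 at 48 h, neither called (limma adjusted p 0.473 and 0.314), and 2.04 ± 0.20 at 72 h (limma adjusted p 5.84e-06). Between 48 and 72 h Isl2 rose by 1.78 ± 0.20 (limma adjusted p 0.00179), the 39th largest rise of all tested genes in that interval. Only 0.644% of the genes tested were called higher between 48 and 72 h, and Isl2 was the only member among them.

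The unequal course of the 2 islet genes was tested on the difference between them within each array. Isl1 minus Isl2 had a mean of -0.74 ± 0.37 (SD, n = 3) in uninduced cells, 0.84 ± 0.56 at 24 h, 4.37 ± 0.40 at 48 h and 3.80 ± 0.06 at 72 h. An exact permutation test of the F ratio between the 4 groups, which has no direction, was run over the arrays. It gave a p of 6.49e-05, the smallest that 15400 partitions allow, and 0.000195 after Benjamini-Hochberg adjustment over 3 pairs. The difference was narrower on each 72 h array (3.74 to 3.86) than on each 48 h array (3.91 to 4.65). Neither its sign nor its size is a ratio of transcripts, since the probe sets differ and low signals are compressed: the change from uninduced cells to 72 h was 4.54 with the constant of 16, 5.27 with 1 and 3.80 with 64.

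Pou4f1 was called higher from 48 h. Its uninduced signals were 12.4, 24.0 and 38.8, and those at 24 h were 18.3, 55.7 and 73.7, which overlapped them. At 48 h the arrays gave 499, 690 and 437, and at 72 h 1485, 1656 and 1207, with no overlap between the groups. Relative to uninduced cells, the log2 difference of Pou4f1 was 0.61 ± 0.36 at 24 h (limma adjusted p 0.303), 3.79 ± 0.36 at 48 h (limma adjusted p 8.18e-06) and 5.20 ± 0.36 at 72 h (limma adjusted p 4.74e-07). At 72 h this was the 36th largest rise of all genes tested. Replicate 1 was the lowest 24 h array; without it the 24 h difference was 1.02 and was called, with a limma adjusted p of 0.0147. The step from 48 to 72 h was 1.41 ± 0.36 and was not called (limma adjusted p 0.107), but was without that array (limma adjusted p 0.00661). The second Pou4f1 probe set gave 0.36, 2.61 and 3.61 against uninduced cells at 24, 48 and 72 h.

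Tlx3, which together with its paralogue Tlx1 directs an excitatory over an inhibitory transmitter choice in dorsal horn neurons, was called higher at 72 h alone. Signals were 14.0, 25.7 and 38.1 in uninduced cells, 49.8, 23.8 and 20.5 at 24 h, and 52.3, 43.0 and 21.7 at 48 h, and these groups overlapped. At 72 h the arrays gave 122, 126 and 129, above all others. For Tlx3 the log2 difference to uninduced cells was 0.17 ± 0.30 at 24 h and 0.39 ± 0.30 at 48 h (limma adjusted p 0.759 and 0.345), then 1.80 ± 0.30 at 72 h (limma adjusted p 0.000444). From 48 to 72 h it was 1.41 ± 0.30, with a limma adjusted p of 0.0543, and 0.00991 without replicate 1 of the 24 h group. Over the 12 arrays the levels of Tlx3 and Isl2 had a Pearson r of 0.914, and those of Isl1 and Pou4f1 of 0.978. The lowest value among the 15 pairs of tested members was 0.618, for Tlx3 and Eya2. These coefficients describe levels that share the 4 groups and 12 arrays.

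**Figure D2:**
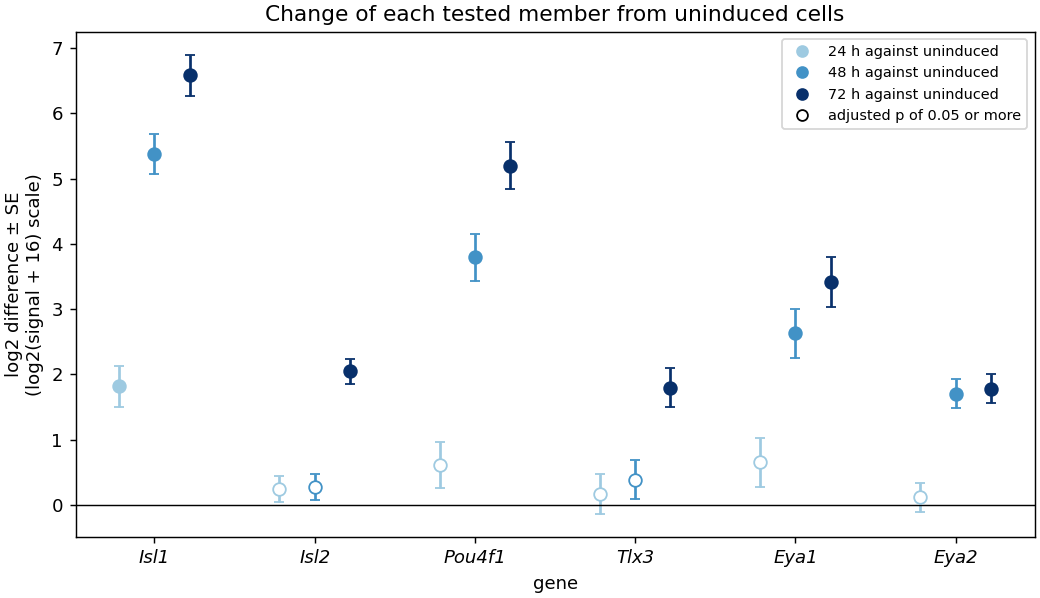
Log2 difference from uninduced cells (mean ± SE of the fit, on the log2(signal + 16) scale) for the 6 tested members after 24, 48 and 72 h, with open circles for differences that were not called. The 24 h circle is filled for Isl1 alone, and Isl2 and Tlx3 are filled at 72 h alone.

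Both Eya genes were called higher from 48 h. Eya1 gave 39.0, 60.4 and 31.9 in uninduced cells and 31.8, 134 and 92.7 at 24 h, where replicate 1 lay below every uninduced array and the other 2 above. It gave 304, 318 and 433 at 48 h and 545, 508 and 817 at 72 h, and these groups did not overlap. Eya1 differed from its uninduced level by 0.65 ± 0.38 at 24 h (limma adjusted p 0.296), 2.63 ± 0.38 at 48 h (limma adjusted p 0.000185) and 3.42 ± 0.38 at 72 h (limma adjusted p 1.76e-05). Without replicate 1 of the 24 h group the 24 h difference was 1.12 and was called (limma adjusted p 0.00768). The step from 48 to 72 h, 0.78 ± 0.38, was not called (limma adjusted p 0.628). The other Eya1 probe sets gave smaller differences, -0.14, 1.70 and 2.00 for one and 0.30, 0.90 and 1.28 for the other at 24, 48 and 72 h.

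Eya2 rose between 24 and 48 h, by 1.59 ± 0.22 on the log2 scale (limma adjusted p 0.000468). Its signals were 9.83, 2.03 and 0.928 in uninduced cells and 4.44, 5.45 and 7.0 at 24 h, all below the array median. They were 60.4, 38.9 and 49.3 at 48 h and 60.5, 50.7 and 46.2 at 72 h, above all earlier arrays and overlapping each other. The log2 difference of Eya2 to uninduced cells was 0.12 ± 0.22 at 24 h (limma adjusted p 0.763), 1.71 ± 0.22 at 48 h (limma adjusted p 8.80e-05) and 1.78 ± 0.22 at 72 h (limma adjusted p 4.43e-05), and 0.07 ± 0.22 between 48 and 72 h. Within arrays, Eya1 minus Eya2 had means of 1.56 ± 0.50 (SD, n = 3), 2.09 ± 0.80, 2.48 ± 0.37 and 3.20 ± 0.47 from uninduced to 72 h. The exact permutation test over the 4 groups gave p = 0.0372, which did not pass after adjustment over 3 pairs (0.0558). It passed without replicate 1 of the 24 h group (adjusted p of the exact test 0.0174) and without replicate 2 of that group (0.0279). The change from uninduced cells to 72 h, 1.64, was 0.08 with a constant of 1 and 0.46 with the mean of all probe sets (exact test adjusted p 0.745 and 0.501), so an unequal change of the Eya genes was not established.

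Runx1 and Runx3 were at low signal, and on the probe sets used here their groups overlapped throughout. The Runx1 probe set with the highest mean, 1 of 6, gave 44, 9.33 and 22.9 in uninduced cells, 78.1, 22.9 and 21.2 at 24 h, 49.2, 15.6 and 18.8 at 48 h, and 57.0, 21.5 and 20.1 at 72 h. Replicate 1 was the highest array in every group. Runx3 gave 8.59, 19.5 and 12.4 in uninduced cells, 4.97, 10.8 and 12 at 24 h, 10.4, 12.9 and 8.91 at 48 h, and 2.62, 11.9 and 11.6 at 72 h. In a fit without the filter on low values, over 18193 genes, the 72 h difference was 0.25 ± 0.44 for Runx1 and -0.26 ± 0.22 for Runx3 (limma adjusted p 0.746 and 0.424). In that fit 1 of the 8 measured members was called higher at 24 h, 4 at 48 h and 6 at 72 h, and over all genes 4.38%, 13.8% and 16.2% were. On the other Runx3 probe set all 24 h and 48 h arrays lay below all uninduced arrays, with differences of -0.58 and -0.61, and on 1 other Runx1 probe set all 72 h arrays lay below all 48 h arrays, at -0.38; these were not tested. The within-array difference Runx1 minus Runx3 gave an exact permutation p of 0.793, raw and adjusted.

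**Figure D3:**
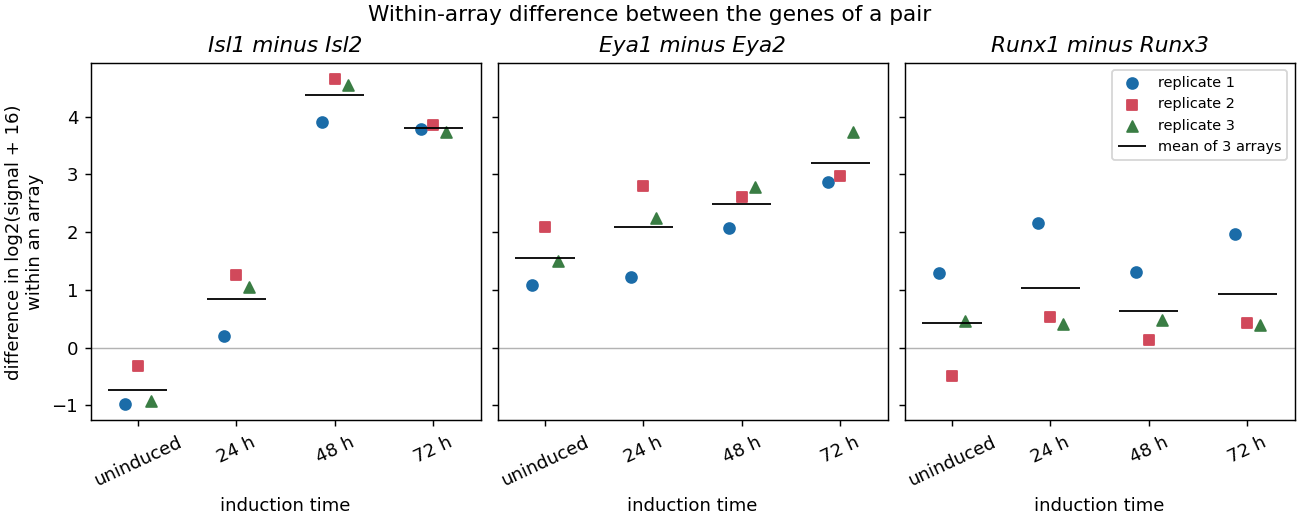
Difference in log2(signal + 16) between the genes of a pair within each array, against induction time, with symbols for replicates 1 to 3 and lines for means of 3 arrays. Isl1 minus Isl2 moves from a mean of -0.74 to 4.37 at 48 h and 3.80 at 72 h, Eya1 minus Eya2 from 1.56 to 3.20, and the arrays of Runx1 minus Runx3 overlap in all groups.

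The genes whose levels most resembled each member over the 12 arrays were as follows, with Pearson r as the measure. They were taken among all genes tested, with symbols of unnamed transcripts left out. For Isl1 they were Gdap1 (0.993), Mapre2 (0.991) and Atl1 (0.989). For Pou4f1 they were Asxl3 (0.997), Pcdhb22 (0.996) and Hmgcll1 (0.995). Those of Isl2 were Ppp1r1c (0.969), the neural adhesion molecule gene L1cam (0.961) and the synuclein gene Sncg (0.958). Those of Tlx3 were Nacad (0.947), Fkbp1b (0.944) and the serotonin receptor gene Htr7 (0.943). Eya1 was followed by the semaphorin gene Sema3c (0.992), Flrt3 (0.992) and Scamp1 (0.989), and Eya2 by Astn1 (0.985), Rufy3 (0.978) and Lrp12 (0.977). No gene appeared beside more than 1 member.

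Other factors of sensory neuron differentiation included genes that rose as early as 24 h. Of the 15 tested genes of a list of 24, 7 rose at 24 h, 10 rose and 1 fell at 48 h, and 10 rose and 1 fell at 72 h. With each array left out in turn, 6 to 8 rose at 24 h and 8 to 10 at 48 h. The count of 8 at 24 h came without replicate 1 of that group, and without replicate 2 of the 72 h group 2 fell at 72 h. The median difference of the list was 1.27, 3.45 and 3.53 at the 3 times, against 0.10, 0.12 and 0.09 over all genes tested. Ebf3 and Ebf2, helix-loop-helix factors of the EBF family, had risen by 24 h, by 3.18 ± 0.24 and 5.02 ± 0.46 (limma adjusted p 1.45e-05 and 4.41e-05). At 72 h Ebf3 was 6.33 ± 0.24 and Nhlh2, a neuronal helix-loop-helix factor, 6.20 ± 0.41 above uninduced cells (limma adjusted p 2.69e-08 and 3.31e-07). The ETS factor gene Etv4 fell by 3.44 on the log2 scale at 48 h (SE 0.41, limma adjusted p 4.69e-05). Insm2, Neurod6 and Gata3 were at or below the array median on all 12 arrays.

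Placode factors and partners of the EYA proteins moved in both directions. Of 19 tested genes of 35, 3 rose at 24 h, 6 rose and 4 fell at 48 h, and 8 rose and 3 fell at 72 h. The list medians were 0.28, 0.11 and 0.38. With each array left out in turn, 2 to 4 rose at 24 h (4 without replicate 1 of that group), 6 to 7 at 48 h and 7 to 8 at 72 h. Dach1, a nuclear cofactor that works with the Eya proteins, rose by 2.65 ± 0.36 at 48 h and 4.43 ± 0.36 at 72 h (limma adjusted p 0.000129 and 1.56e-06). Pax3, a paired-box factor of the ophthalmic trigeminal placode and the neural crest, rose by 4.46 ± 0.29 at 48 h (limma adjusted p 6.64e-07). Sox3, a SoxB1 factor of neural and placodal progenitors, rose by 3.83 ± 0.55 at that time (limma adjusted p 0.000193). Tfap2c was called higher at 24 h, by 1.08 ± 0.29 (limma adjusted p 0.0317). That call was lost without replicate 2 of the 24 h group (limma adjusted p 0.0608). It was also lost without replicate 2 or 3 of the uninduced group (limma adjusted p 0.0827 and 0.125). At 72 h Tfap2c was 2.59 and Sox2 1.10 below uninduced cells (SE 0.29 and 0.16, limma adjusted p 1.88e-05 and 0.000161). Sox2 is also an ES cell marker. In this list 9 genes, among them Six6, Dlx5, Dlx6 and Tbx1, were never above the array median.

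Among proteins that bind or compete with LIM-homeodomain factors, and their relatives, 3 of 14 tested genes (of 20) rose at 24 h. At 48 h 8 rose and 1 fell, and at 72 h 10 rose and 1 fell, with medians of 0.26, 0.81 and 1.31. Without replicate 1 or replicate 2 of the 48 h group 5 rose at 48 h, and without replicate 1 of the 24 h group 4 rose and 1 fell at 24 h. With each array left out in turn, 2 to 4 rose at 24 h, 5 to 9 at 48 h and 7 to 11 at 72 h. Lhx2, a LIM-homeodomain gene, rose by 4.34 ± 0.42 at 72 h, Ssbp2, whose protein binds the LDB cofactors, by 2.59 ± 0.28, and the LIM-only gene Lmo2 by 2.40 ± 0.41 (limma adjusted p 6.34e-06, 1.32e-05 and 0.000488). Ssbp4 fell by 1.99 (SE 0.30, limma adjusted p 0.000168). Of 7 tested RUNX partners, 2 rose at 24 h and 5 at both 48 and 72 h, and none was called lower in this limma fit. At 24 h 4 rose without replicate 1 of that group, among them Cbfb and Runx1t1 (limma adjusted p 0.0231 and 0.00107), and 1 without its replicate 2 or without replicate 2 or 3 of the uninduced group. Cbfb, which encodes the subunit that RUNX proteins need to bind DNA stably, rose by 1.84 ± 0.28 at 72 h, and the corepressor gene Runx1t1 by 3.58 ± 0.41 (limma adjusted p 0.000198 and 2.46e-05).

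Products of differentiated sensory neurons moved in both directions at 24 h. At 24 h 4 of 18 tested genes rose and 4 fell, at 48 h 11 rose and 2 fell, and at 72 h 14 rose and 3 fell, with medians of -0.21, 2.10 and 2.54. The neurofilament gene Nefm was 6.59 ± 0.43, the GDNF receptor gene Ret 5.83 ± 0.35 and the ATP-gated channel gene P2rx3 4.96 ± 0.31 above uninduced cells at 72 h (limma adjusted p 3.06e-07, 2.18e-07 and 2.58e-07). Stmn2 fell by 1.56 at 24 h (SE 0.28, limma adjusted p 0.00393). At 72 h it was not called (limma adjusted p 0.133). It was called at 72 h without replicate 1 of the 24 h group and with the mean of all probe sets (limma adjusted p 0.0385 and 0.00317). Thy1 fell by 1.04 at 24 h and was 1.29 below uninduced cells at 72 h (SE 0.28 for both, limma adjusted p 0.0345 and 0.00282). Nefl fell by 1.27 at 24 h (SE 0.29, limma adjusted p 0.0149) and was 4.76 ± 0.29 above uninduced cells at 72 h (limma adjusted p 2.22e-07). The count of falls at 24 h was 1 without replicate 1 of the uninduced group, where Nefl and Thy1 were not called (limma adjusted p 0.0637 and 0.0880), and 2 without replicate 2 or 3 of either the 24 h or the uninduced group. At 72 h 1 gene fell, not 3, without replicate 3 of the 72 h group or replicate 2 or 3 of the uninduced group. The neuropeptide gene Tac1, the channel genes Trpv1 and Trpm8, and the sodium channel genes Scn10a and Scn11a never exceeded the array median.

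**Figure D4:**
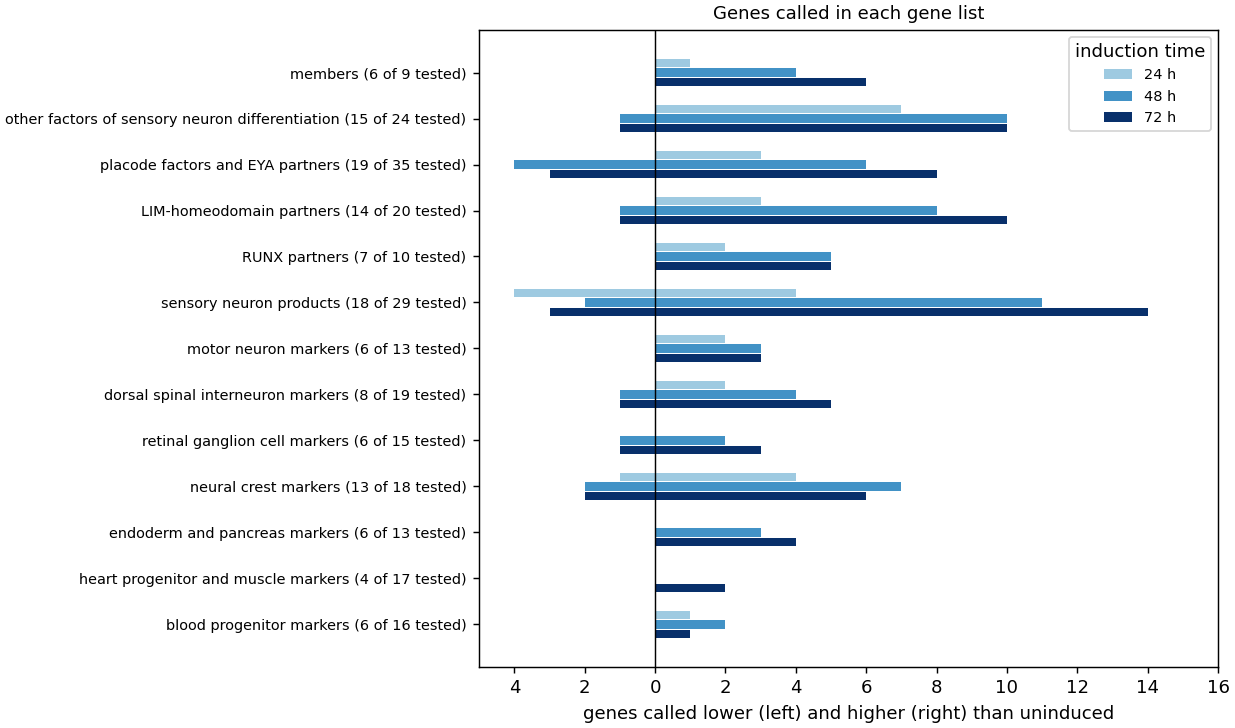
Number of genes called lower (bars to the left of 0) and higher (bars to the right) than in uninduced cells at 24, 48 and 72 h, for the members and 12 gene lists, with the number tested of the number listed. At 72 h, 10 of 15 and 14 of 18 tested genes of the sensory lists were called higher, and 4 of 6 endoderm and pancreas markers. So were 2 of 4 heart and muscle markers and 1 of 6 blood markers, against 25.3% of all genes tested. On all 3 uninduced arrays, 4 of 19 and 8 of 26 measured genes of the sensory lists exceeded the array median. For endoderm, heart and blood markers it was 1 of 11, 2 of 17 and 2 of 16. Many tested genes entered only through induced groups, so these counts cannot be read as an excess.

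Markers of other cell types that use these factors were read beside the members, as signals summed over each list. Motor neuron markers, a list that holds Isl1 and Isl2, summed to 161 to 207 in uninduced cells and 2676 to 3369 at 72 h; without those 2 genes the sums were 119 to 168 and 120 to 572, which overlap. Of 6 tested, 3 rose at 72 h: Isl1, Isl2 and Olig2, at 2.95 ± 0.83 (limma adjusted p 0.012). Olig2 was not called at 72 h without replicate 1 or replicate 2 of the 72 h group (limma adjusted p 0.0586 and 0.0594), 5 of 7 tested genes of the list were called without its replicate 3, and Chat, Slc5a7, Lhx4 and Nkx6-2 never exceeded the array median. Dorsal spinal interneuron markers, which include Tlx3, summed to 330 to 397 in uninduced cells and 523 to 1211 at 72 h (316 to 372 and 394 to 1089 without Tlx3), with 5 of 8 tested genes called higher and 1 lower. Lhx2 and Olig3 had the largest called rises of that list. Lhx2 was at 4.34 ± 0.42 at 72 h (limma adjusted p 6.34e-06). Olig3 was at 3.43 ± 0.47 at 48 h and 2.30 ± 0.47 at 72 h (limma adjusted p 0.000124 and 0.00161). The gene called lower was Foxd3, at -2.13 ± 0.46 at 72 h (limma adjusted p 0.0026). Lmx1b, Ptf1a, Gsx2 and Barhl2 of the same list stayed at or below the array median. Retinal ganglion cell markers, which include Pou4f1, summed to 901 to 1379 and 2077 to 2728 (862 to 1366 and 871 to 1072 without Pou4f1), with 3 of 6 tested genes called higher (Pou4f1, Irx2 and Sncg) and Rbpms lower, at -2.06 ± 0.41 (limma adjusted p 0.00145).

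Neural crest markers summed to 574 to 732 in uninduced cells and 1156 to 1398 at 72 h, with 6 of 13 tested genes called higher and 2 lower. With each array left out in turn, 4 to 6 were called higher at 72 h. At that time Pax3, also in the placode list, was at 3.73 ± 0.29, Zic1 at 3.49 ± 0.45 and Zeb2 at 3.18 ± 0.57 (limma adjusted p 1.20e-06, 5.79e-05 and 0.000698). Foxd3 was at -2.13 ± 0.46 and Erbb3 at -2.25 ± 0.25 (limma adjusted p 0.0026 and 1.83e-05). Endoderm and pancreas markers summed to 96.0 to 168 and 298 to 496, and 4 of 6 tested genes were called higher. Among these, Sox17 was at 1.62 ± 0.58 (limma adjusted p 0.0386), with signals from 25.9 to 219 at 72 h. It was not called without replicate 3 of the 72 h group or under quantile normalization (limma adjusted p 0.165 and 0.0676). Nor was it called without replicate 1, 2 or 3 of the uninduced group (limma adjusted p 0.0896, 0.0937 and 0.0759). Foxa2 was at 2.19 ± 0.33 (limma adjusted p 0.000214), while Pdx1, Afp, Ins2 and Gcg never exceeded the array median. Blood progenitor markers summed to 349 to 390 and 311 to 549, with 1 of 6 tested called higher at 72 h, and heart and muscle markers to 236 to 380 and 364 to 457, with 2 of 4. ES cell markers summed to 47923 to 53324 in uninduced cells and 5501 to 5996 at 72 h, and all 12 fell by 48 h. One of them, Tbx3, was not called lower at 72 h without replicate 1 or 2 of the 72 h group or replicate 2 or 3 of the uninduced group. Pan-neuronal genes summed to 3855 to 4272 and 18207 to 19010, and 8 of 9 were called higher at 72 h. Most of the uninduced sum was Stmn2, with signals of 3222 to 3649 on those arrays. Stmn2 fell by 1.56 at 24 h (SE 0.28, limma adjusted p 0.00393). At 72 h it was 0.55 ± 0.28 above uninduced cells and was not called (limma adjusted p 0.133). Without replicate 1 or replicate 3 of the 24 h group it was called at 72 h (limma adjusted p 0.0385 and 0.0447). With the mean of all probe sets its 72 h difference was 1.19, and under quantile normalization 0.96, both called (limma adjusted p 0.00317 and 0.0106). The compared arrays alone and array weights also called it (limma adjusted p 0.00391 and 0.00671). The 72 h result for Stmn2 therefore depends on the processing. The part of these other cell types in the levels of Isl1, Isl2, Pou4f1 and Tlx3 was not tested.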

How the data were processed

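Total RNA of the 12 samples was extracted with Trizol and hybridised as biotinylated cRNA to Affymetrix arrays, per the labels' protocols. The deposited values are linear intensity signals of probe sets, which the authors computed in MAS5 (per the submitters' processing notes); the sources used here give neither its version nor its scaling. On every array the mean signal without the highest and lowest 2% was 150.001. Probe sets were named from the platform annotation. Of 45101, 34945 that were not controls had 1 symbol, 932 had several and 9211 had no entry. The 64 controls overlap these counts, so the classes do not add up to the total. Each gene was read from its probe set with the highest mean log2(signal + 16). Groups came from the labels.

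Genes above the array median on at least 3 arrays of a group (11806) were fitted in limma 3.58.1 (R 4.3.3; lmFit and eBayes with trend, 4 group terms, 6 comparisons, no covariate), with Benjamini-Hochberg adjustment over all genes tested and a threshold of 0.05, two-sided. Differences within pairs of paralogues were tested by exact permutation over arrays. Scripts were tested on simulated data. The number of arrays limits the precision. Named genes are all members, Neurog1, and up to 3 genes with the largest called rises and falls of each list. The 3 most correlated genes per member, with symbols of unnamed transcripts left out, are also named. The members, lists and rules were chosen with earlier results of these data known. Alternatives were pseudocounts of 1 and 64, no filter or a 75th percentile filter, quantile normalization, the mean of all probe sets, the compared arrays alone, array weights, a replicate block and each array left out. The labels do not say what was replicated beyond the word biological, so p-values measure the spread between these arrays. Replicate numbers were not taken as pairs.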

Additional observations from a re-analysis of the deposited data

How the results depend on the processing

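All 22 calls of a member among the 6 comparisons held their direction and side of the threshold in all 456 alternatives computed for them, and none of these calls changed direction. Each call of Eya2 and Tlx3 had values in 20 of the 21 alternatives, since these genes were not in the fit of the remaining alternative. The count of members called from 48 to 72 h, 1 in the fit reported, was 4 with a pseudocount of 64, 2 with the mean of all probe sets, 4 with the compared arrays alone and 5 with array weights, a fit that stopped before converging; at 24 h it was 3 with array weights. Genes called from 48 to 72 h, 94 in the fit reported, numbered 19 with a pseudocount of 1, 239 with one of 64, 51 with the filter at the 75th percentile, 159 with the mean of all probe sets, 469 with the compared arrays alone and 2549 with array weights. The compared arrays alone gave 385 genes at 24 h (1335 in the fit reported), 1045 from 24 to 48 h (2104) 2020 from 24 to 72 h (3696), and, in the other direction, 6411 at 48 h (4316) and 6940 at 72 h (5180). Array weights gave 6956 at 48 h (4316) and 8108 at 72 h (5180). The cause was not tested. With each array left out in turn, genes called ranged from 710 to 2972 at 24 h, 3225 to 6718 at 48 h, 4074 to 7360 at 72 h, 1186 to 3012 from 24 to 48 h, 2447 to 4772 from 24 to 72 h and 27 to 485 from 48 to 72 h. Members called ranged from 1 to 3 at 24 h and 1 to 4 from 48 to 72 h, the upper values without replicate 1 of the 24 h group, and stayed at 4, 6, 4 and 6 in the other comparisons. The change of Eya1 minus Eya2 from uninduced to 72 h ranged from 1.37 to 1.90, that of Isl1 minus Isl2 from 4.42 to 4.75 and that of Runx1 minus Runx3 from -0.01 to 0.95, turning its sign without replicate 1 of the 72 h group. Eya1 minus Eya2 passed the exact permutation test with a pseudocount of 64 (change 1.88), quantile normalization (1.71) and the replicate block (1.64, adjusted p of the exact test 0.00781), and was far smaller, and not called, with a pseudocount of 1 (0.08) and the mean of all probe sets (0.46). Arrays of different groups were also correlated after the group mean of each gene had been subtracted. In these remainders same-numbered arrays correlated at over 0.1 in 16 of 18 pairs (3 of 36 for other pairs). There 9 of 12 arrays correlated best with their own number, a hint from the data that numbers may mark a shared source. The labels name none and not every pair passed 0.1 (lowest 0.03), so the block was kept as an alternative; the replicate block changed no call of a member. Quantile normalization moved the median of all genes from 0.12 to -0.03 at 48 h and from 0.09 to -0.08 at 72 h, and the share of calls that were higher from 57.7% to 45.6% between 24 and 48 h, 51.8% to 42.8% between 24 and 72 h and 57.6% to 48.8% at 72 h against uninduced cells. The pair of Pou4f1 and Pou4f2 was not run.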
